A study of Mus musculus with 5 samples.

Results

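Fetal myonuclei, the nuclei inside muscle fibers, were compared with embryonic ones in 2 libraries of mouse hindlimb muscle, one taken at E18.5 and one at E14.5 (E, embryonic day). A nucleus was counted as a myonucleus when RNA of Ttn, Neb, Trdn and Ryr1, which encode giant filament proteins and parts of the calcium release machinery, made up at least 1.5% of its unique molecules (UMIs). This rule kept 1563 of 4261 nuclei at E18.5 (36.7%) and 1809 of 4812 at E14.5 (37.6%), together 3372 of the 21154 nuclei of the series that passed quality control. The series followed muscle fibers from the embryo to the adult and in fetuses without Cacna1s, with 10x Multiome, an assay that sequences the RNA of a nucleus and, by ATAC, its accessible DNA. Both libraries came from wild-type C57bl6n mice, from 14 pooled hindlimbs at E18.5 and 56 at E14.5. Skin and bone were removed, the muscle was frozen, and nuclei positive and negative for PCM1, a protein that surrounds the nuclei of muscle fibers, were sorted and mixed in equal volumes, so the shares of myonuclei above follow the sort. Each stage is 1 library of pooled animals, so the differences below could not be checked in replicates and were not tested. Intervals in parentheses are exact 95% intervals that cover counting error only.

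Limb muscle forms in successive waves. Embryonic myoblasts fuse into primary fibers, which lay down the pattern of each muscle, and fetal myoblasts later fuse along them into secondary fibers, while motor nerves arrive and synapses form. Fibers replace embryonic and slow forms of their contractile proteins with perinatal and fast forms through these stages, and build up the membranes that store and release calcium and the enzymes that supply ATP.

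Open chromatin sequences of regions and promoters described below are shown first, to give the letters in which motifs were looked for. The first set holds the central 201 bases of distal regions (no annotated gene start within 1000 bases) from among the 8 that were highest at E18.5 relative to E14.5, on the plus strand of GRCm38. Capitals mark TGANTCA, the motif of AP-1 factors. The first, at chr15:63036387-63036587, is named for Gsdmc, the nearest annotated start at 772272 bases, and the second, at chr4:33524654-33524854, for Rngtt at 214442 bases. Both are intergenic in the annotation. In this window TGANTCA was in 2 of the 8 highest, both printed here, and in 1 of the 8 lowest, against 7.63% of all distal regions.
Gsdmc region: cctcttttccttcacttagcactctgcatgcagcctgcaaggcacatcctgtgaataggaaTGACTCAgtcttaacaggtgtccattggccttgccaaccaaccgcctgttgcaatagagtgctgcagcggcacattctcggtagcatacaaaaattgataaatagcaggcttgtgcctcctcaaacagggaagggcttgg
Rngtt region: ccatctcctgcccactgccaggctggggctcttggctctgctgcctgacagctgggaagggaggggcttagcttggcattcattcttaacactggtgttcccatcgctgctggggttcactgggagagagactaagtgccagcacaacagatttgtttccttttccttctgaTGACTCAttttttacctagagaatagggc

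The second set comes from the 8 distal regions that were lowest at E18.5 relative to E14.5. Capitals mark CAGCTG, an E-box bound by myogenic factors such as MyoD and Myogenin. The first lies 3646 bases from the start of Myh7b, which encodes a slow-type myosin heavy chain, at chr2:155607466-155607666, and the second 45020 bases from Lhx1os, at chr11:84570590-84570790. Both are intergenic. In this window 3 of the 8 lowest and 5 of the 8 highest held CAGCTG, against 34.9% of all distal regions, so the few regions shown do not stand for the sets.
Myh7b region: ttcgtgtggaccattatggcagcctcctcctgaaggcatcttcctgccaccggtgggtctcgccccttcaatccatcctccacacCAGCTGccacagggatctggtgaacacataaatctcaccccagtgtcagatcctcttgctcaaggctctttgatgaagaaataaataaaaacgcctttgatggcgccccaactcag
Lhx1os region: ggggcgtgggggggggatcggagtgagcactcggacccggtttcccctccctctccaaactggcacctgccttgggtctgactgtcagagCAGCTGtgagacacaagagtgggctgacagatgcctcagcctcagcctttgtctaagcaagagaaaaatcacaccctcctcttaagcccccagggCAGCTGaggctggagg

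The last set holds 300 bases of promoter (250 before to 50 after the start, RefSeq, GRCm38.p6, in the direction of the gene) for genes whose promoter accessibility and RNA are described together below. Slc10a6 lies on the minus strand at chr5:103629354-103629653, Ckmt2 on the minus strand at chr13:91876836-91877135, Myh8 on the plus strand at chr11:67276874-67277173, Itga4 on the plus strand at chr2:79255176-79255475 and Tnnc1 on the plus strand at chr14:31208062-31208361. Capitals mark CAGCTG, and in Myh8 the motif of MEF2 factors. The Tnnc1 promoter held neither string.
Slc10a6 promoter: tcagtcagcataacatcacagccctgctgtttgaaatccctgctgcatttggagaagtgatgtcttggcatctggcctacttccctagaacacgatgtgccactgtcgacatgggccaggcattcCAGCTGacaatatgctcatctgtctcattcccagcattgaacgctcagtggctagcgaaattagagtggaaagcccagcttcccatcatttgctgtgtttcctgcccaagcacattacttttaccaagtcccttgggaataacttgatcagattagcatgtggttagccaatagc
Ckmt2 promoter: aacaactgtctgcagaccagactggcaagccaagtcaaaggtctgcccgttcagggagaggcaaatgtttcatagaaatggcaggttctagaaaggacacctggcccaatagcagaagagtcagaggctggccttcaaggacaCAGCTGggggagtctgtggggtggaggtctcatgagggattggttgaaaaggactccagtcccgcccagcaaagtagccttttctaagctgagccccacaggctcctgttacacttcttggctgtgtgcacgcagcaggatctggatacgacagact
Myh8 promoter: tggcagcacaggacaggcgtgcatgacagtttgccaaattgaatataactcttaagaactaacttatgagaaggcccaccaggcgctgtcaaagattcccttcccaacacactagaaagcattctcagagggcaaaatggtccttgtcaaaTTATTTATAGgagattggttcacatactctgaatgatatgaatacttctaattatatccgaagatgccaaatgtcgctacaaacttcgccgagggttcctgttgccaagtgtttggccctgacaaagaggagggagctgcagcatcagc
Itga4 promoter: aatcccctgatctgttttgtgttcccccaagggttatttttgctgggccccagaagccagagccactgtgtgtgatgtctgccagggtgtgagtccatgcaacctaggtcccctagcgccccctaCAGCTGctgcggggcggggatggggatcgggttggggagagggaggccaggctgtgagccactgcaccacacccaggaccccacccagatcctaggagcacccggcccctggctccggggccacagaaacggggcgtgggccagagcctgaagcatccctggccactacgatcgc
Tnnc1 promoter: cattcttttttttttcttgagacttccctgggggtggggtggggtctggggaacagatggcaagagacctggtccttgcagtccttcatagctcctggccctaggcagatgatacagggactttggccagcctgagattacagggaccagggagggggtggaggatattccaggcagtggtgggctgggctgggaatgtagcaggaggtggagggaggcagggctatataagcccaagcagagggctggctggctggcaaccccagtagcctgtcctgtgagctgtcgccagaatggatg

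The label of the nuclei was checked against markers that the rule had not used. Summed over 14 myonuclear markers, RNA stood at 21951 CPM (UMIs for every 1000000 UMIs of the myonuclei) at E18.5 and 11587 CPM at E14.5, against 928 and 1103 CPM in the nuclei that the rule left out. The rule genes themselves took a median of 3.90% of a myonucleus's UMIs at E18.5 and 2.58% at E14.5. Just inside the limit, between 1.5% and 1.7%, lay 48 myonuclei at E18.5 and 100 at E14.5, and just outside it, between 1.3% and 1.5%, lay 39 and 94 nuclei. Myonuclei held 12518957 UMIs and 14651963 ATAC counts at E18.5, against 9740077 UMIs and 10654281 ATAC counts at E14.5, with a median of 6971 and 4870 UMIs a nucleus. The libraries shared 27 barcodes, of which 3 were myonuclear in both.

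Markers of other cells moved with stage in these nuclei. The 11 mesenchymal markers summed to 1625 CPM at E18.5 and 439 CPM at E14.5, with 8 of them more than 2-fold higher and none at 0, and in the other nuclei to 7784 and 2768 CPM. Of these, Col1a1 stood at 480.5 CPM at E18.5 and 25.2 CPM at E14.5. The 6 macrophage markers summed to 98.3 and 24.3 CPM, the 7 endothelial markers to 64.7 and 22.1 CPM and the 7 cell cycle markers to 104 and 34.7 CPM at E18.5 and E14.5. In the opposite direction, 6 myoblast markers summed to 213 CPM at E18.5 and 360 CPM at E14.5 and 8 erythroid markers to 13.5 and 39.8 CPM. The 8 muscle stem cell markers summed to 93.9 and 269 CPM, of which Chodl held 22.8 and 197 CPM. Of these 8, 3 were higher at E18.5, Pax7 among them at 21.0 and 3.70 CPM. The keratinocyte list stood at 286 CPM at E18.5 and 789 CPM at E14.5, nearly all of it Trp63 (282 and 785 CPM), and its keratins Krt5, Krt14 and Krt1 were at 0 at E18.5. All 5 adipocyte markers were at 0 at E14.5. Together the markers of other cells, without the myoblast and cell cycle lists, took 0.280% of myonuclear UMIs at E18.5 and 0.214% at E14.5. In this measure 49 and 4 nuclei exceeded 1%. Their part in the results below was not tested beyond leaving out those nuclei, which is given where it ends a call.

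Of 11209 genes with 100 or more UMIs over the 2 sums, 1557 (13.9%) were more than 2-fold higher at E18.5 and 900 (8.03%) more than 2-fold lower, together 21.9%. Higher genes were thus 63.4% of those past 2-fold, against 53.2% when ratios were scaled by their median and 50.5% when each nucleus was thinned to 1000 UMIs. The median gene stood 0.15 higher at E18.5 on the log2 scale, so a list median of that size is that of all genes. Below, "rose" and "fell" are used only of genes past 2-fold in either direction, and fold changes are ratios of CPM at E18.5 over E14.5.

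The 12 highest ratios among genes enriched in myonuclei at the stage where they were higher are given first. Mylk2, the skeletal muscle kinase that phosphorylates the regulatory myosin light chain, stood at 57.1 CPM at E18.5 and 1.44 CPM at E14.5, a 39.7-fold rise (23.5 to 73.1). Mlip, which encodes a protein that binds lamins at the nuclear envelope, rose 41.1-fold (35.9 to 47.2), with 910 CPM at E18.5 and 22.2 CPM at E14.5. Ckmt2, the sarcomeric creatine kinase of mitochondria, had 164 and 5.13 CPM, a 31.9-fold rise (24.1 to 43.1). Mylk2 and Ckmt2 were nearly silent in the embryonic library and not in the fetal one, while Mlip was low but not silent at E14.5. After each nucleus was thinned to 1000 UMIs, which left out 5 myonuclei at E18.5 and 36 at E14.5, Mlip RNA was found in 40.8% of E18.5 and 1.86% of E14.5 myonuclei, against 1.20% and 0.446% of the other nuclei. Unthinned, it was found in 58.0% and 5.47% of myonuclei. Xirp2, whose product binds actin at the Z-disc, was at 264 CPM at E18.5 and rested on 12 UMIs at E14.5 (1.23 CPM). Mettl21e, a methyltransferase gene of muscle, rested on 1 UMI at E14.5 and stood at 28.8 CPM at E18.5, and Mybpc2, the fast myosin-binding protein C, rested on 2 and stood at 34.8 CPM. Counts this small leave the size of their folds wide open, and the interval for Mybpc2 ran from 46.7 to 1405.

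Also among the 12 highest were Mlf1 (204 CPM at E18.5 and 2.87 CPM at E14.5), Tmem233 (79.7 and 2.26 CPM), Mettl11b (31.1 and 0.924 CPM), Ano4 (23.8 and 0.719 CPM) and Ndrg2 (46.0 and 0.205 CPM). Unthinned, Ano4 RNA was found in only 2.18% of E18.5 and 0.221% of E14.5 myonuclei. In the other nuclei Ano4 stood at 4.57 and 16.5 CPM. Dmrt1, a DM-domain factor best known from the testis, completed the group with 51.6 CPM at E18.5 and 1.75 CPM at E14.5. It stood at 0.161 CPM in the P5 library and at 0.0506 CPM in the adult library of the series, so among the stages measured its level was highest at E18.5. Mlip was higher still at P5, at 2289 CPM.

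The 12 lowest ratios among these genes come next. Ptprt, a receptor phosphatase of cell adhesion, stood at 10.6 CPM at E18.5 and 830 CPM at E14.5, a level 78.2-fold lower at E18.5 (65.9 to 93.5). Dscaml1, a homophilic adhesion gene, was at 0.559 and 154 CPM, a level 276-fold lower (134 to 688). Dner, a transmembrane protein that binds Notch, was at 7.75 and 278 CPM, a level 35.9-fold lower (29.3 to 44.4). Ptprt was thus a widespread transcript of embryonic myonuclei and a rare one of fetal myonuclei. At 1000 UMIs a nucleus it was found in 0.578% of E18.5 and 38.9% of E14.5 myonuclei, against 0.940% and 8.62% of the other nuclei, and unthinned in 4.09% and 63.1% of myonuclei. Cacna1b, the N-type calcium channel of nerve endings, fell 29.4-fold with 3.83 CPM at E18.5 and 113 CPM at E14.5. Cadps, which primes dense-core vesicles for release, had 10.9 and 309 CPM, and Ostn, a secreted peptide of muscle and bone, had 2.80 and 80.9 CPM. Gja5, a gap junction protein, was at 4.71 and 151 CPM and Kremen2, a receptor for inhibitors of Wnt signaling, at 0.719 and 39.6 CPM. The other 4 of the 12 lowest were D7Ertd443e, Sphkap, Fstl4 (9.27 CPM at E18.5 and 266 CPM at E14.5) and Havcr1. All 12 were also more than 2-fold lower at E18.5 in the other nuclei, so these falls were not confined to myonuclei. Ratios of other nuclei ran from 0.0425 at Dscaml1 (1.06 and 24.8 CPM) to 0.481 at Sphkap (5.51 and 11.5 CPM).

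**Figure D1:**
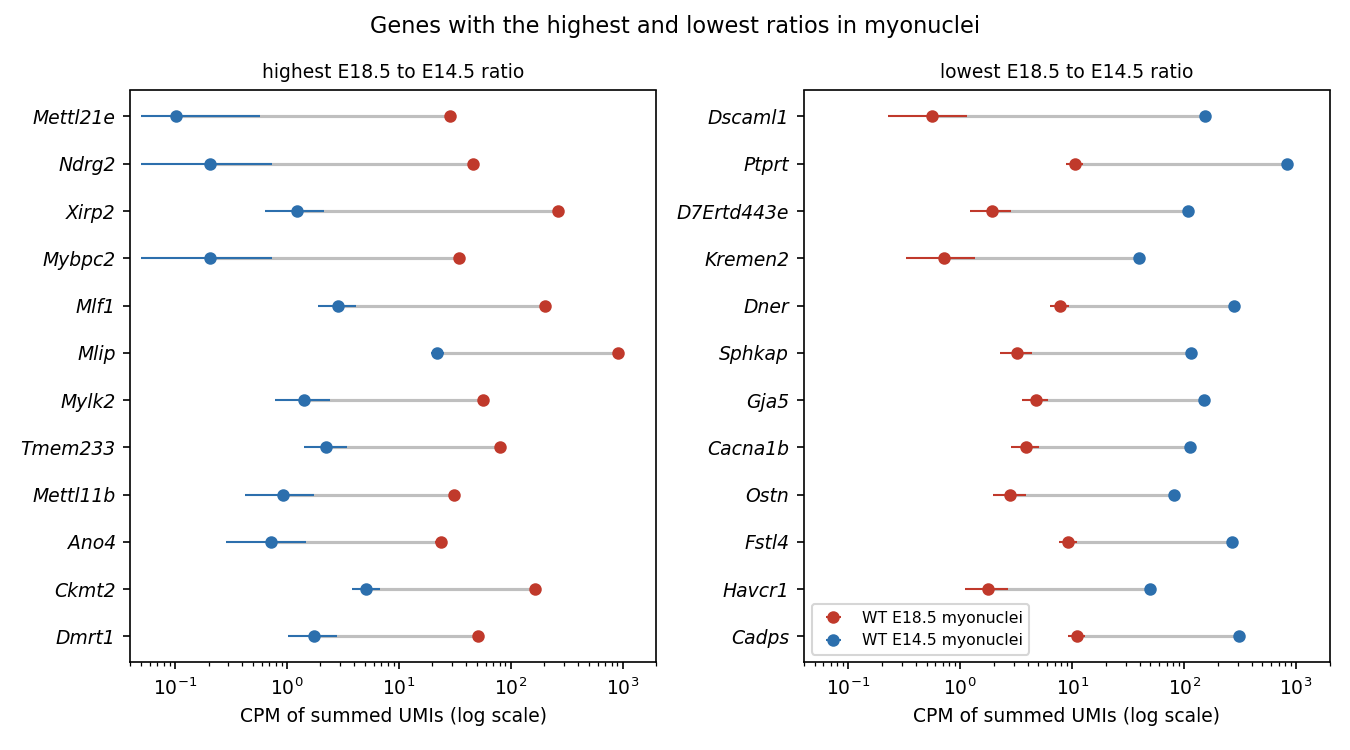
Level in CPM (log axis) in the E18.5 and E14.5 myonuclei of the 12 myonuclear genes of highest and the 12 of lowest ratio, 1 library a stage, with error bars for counting error only. The rising genes sit near or below 5 CPM at E14.5 except Mlip (22.2 CPM), and the falling genes sit below 11 CPM at E18.5.

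By the size of the difference in CPM the order was another. Rian, a noncoding transcript of the imprinted Dlk1 locus, had 15913 CPM at E18.5 and 8162 CPM at E14.5, a ratio of 1.95 (1.93 to 1.97) that lies under 2-fold. Mybpc1, the slow-type myosin-binding protein C, rose 3.14-fold (3.09 to 3.20), with 5524 CPM at E18.5 and 1757 CPM at E14.5. The largest fall was that of Erbb4, a receptor for neuregulins, with 2176 CPM at E18.5 and 7259 CPM at E14.5, a level 3.34-fold lower (3.29 to 3.38). After it came Celf2, a splicing factor, which fell to 3756 CPM at E18.5, against 8360 CPM at E14.5. Grip1, a scaffold of receptors at synapses, fell 3.96-fold and Naaladl2 5.53-fold. Dlg2, Palld, Cacna2d1 and Mef2c were also lower by large counts, but with ratios of 0.536, 0.634, 0.576 and 0.603 they did not pass 2-fold. Of the 4 genes that chose the nuclei, Neb and Trdn had ratios of 2.01 and 2.71 and Ttn and Ryr1 ratios of 1.31 and 1.71. The rule used them, so these values are a description only.

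The myosin heavy chains, the motors of the thick filament, showed a change of leading isoform. Myh8, the perinatal form, stood at 3261 CPM at E18.5 and 464 CPM at E14.5, a 7.02-fold rise (6.81 to 7.24). Myh3, the embryonic form, stood at 997 and 1399 CPM, a ratio of 0.713 (0.696 to 0.730). Of the UMIs of 9 sarcomeric myosin heavy chain genes, Myh8 therefore took 72.2% (71.8 to 72.5) at E18.5 and 20.5% (20.0 to 21.0) at E14.5, and Myh3 22.1% and 61.7%. Shares within a family depend on gene length and intronic reads, so they compare stages and not genes. The slow form Myh7 took 2.52% at E18.5 and 8.65% at E14.5, and Myh7b 1.94% and 7.5%. Myh7 had 114 CPM at E18.5 and 196 CPM at E14.5 and did not pass 2-fold. The adult fast forms were rare at both stages. Myh1 had 30.1 and 11.4 CPM, Myh4 9.83 and 0.719 CPM and Myh2 10.1 and 0.205 CPM, the last resting on 2 UMIs at E14.5. These neighbors are near-identical, and how shared reads were assigned is not known here. Of 8 measured members 4 rose and 1, Myh6, fell, with a median log2 ratio of 0.46 (-0.62 over the members left when each nucleus was thinned to 1000 UMIs).

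The change was also seen nucleus by nucleus. Among myonuclei with at least 10 myosin heavy chain UMIs, 1375 at E18.5 and 989 at E14.5, Myh8 made up most of them in 70.8% (68.3 to 73.2) at E18.5 and 10.0% (8.21 to 12.1) at E14.5. Myh3 made up most of them in 19.8% (18 to 22) and 65.0% (62.0 to 68.0). Between 90% and 100% of the myosin UMIs were Myh8 in 27.3% of nuclei at E18.5 and 0.202% at E14.5, while under 10% were Myh8 in 4.07% and 42.6%. Many nuclei held both forms. The 10th and 90th percentiles of the Myh8 share were 22.2% and 99.1% at E18.5, and 0% and 50.4% at E14.5. Myh7 made up most of them in 14 nuclei at E18.5 and in none at E14.5.

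**Figure D2:**
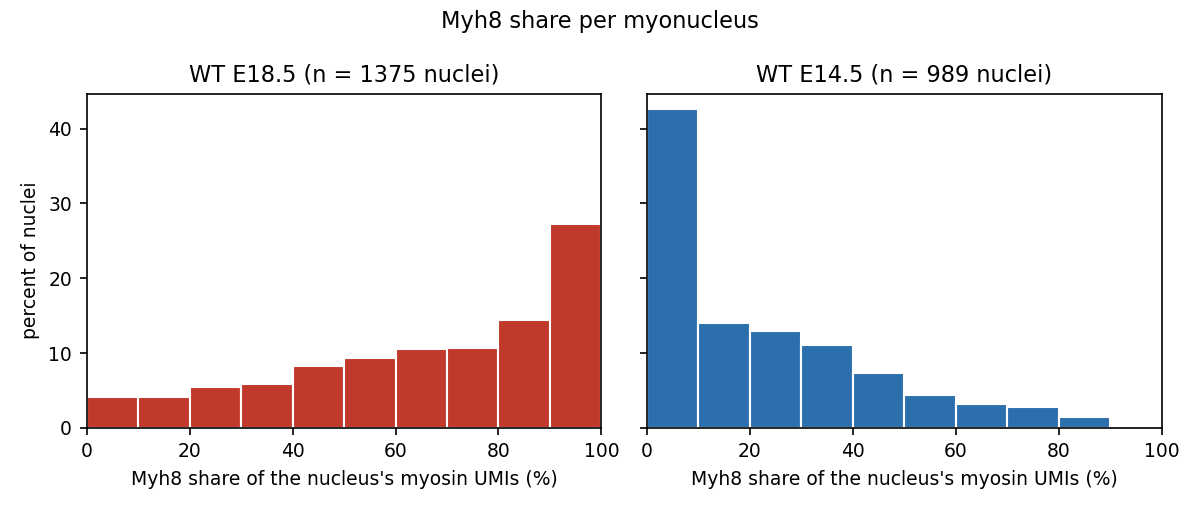
Share of a nucleus's sarcomeric myosin heavy chain UMIs that were Myh8 (percent, in bins of 10) against the percent of nuclei, for 1375 E18.5 and 989 E14.5 myonuclei with at least 10 such UMIs. E18.5 nuclei pile up at high shares (27.3% in the top bin) and E14.5 nuclei at low ones (42.6% in the bottom bin).

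Troponins, the calcium switch of the thin filament, divided by fiber type. The 3 fast genes rose. Tnni2 had 238 CPM at E18.5 and 31.0 CPM at E14.5 (7.66-fold, 6.80 to 8.65), Tnnt3 716 and 182 CPM (3.92-fold) and Tnnc2 199 and 71.6 CPM (2.78-fold). Of the slow genes, Tnnc1 fell to 150 CPM at E18.5, against 353 CPM at E14.5 (2.36-fold lower, 2.23 to 2.50), and Tnnt1 to 100 CPM, against 210 CPM (2.09-fold lower), a call that was lost when nuclei were thinned to 1000 UMIs. Tnni1 had 253 and 395 CPM and the cardiac-type Tnnt2 168 and 207 CPM, both within 2-fold. Tnni2 thus took 48.4% of troponin I UMIs at E18.5 and 7.27% at E14.5, Tnnc2 57.1% and 16.8% of troponin C, and Tnnt3 72.7% and 30.4% of troponin T.

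Of 12 actin and tropomyosin genes 6 rose and 2 fell (median log2 ratio 0.98). Acta1, the skeletal actin, rose 4.15-fold (3.95 to 4.35) with 865 CPM at E18.5 and 209 CPM at E14.5, while its cardiac relative Actc1 had 536 and 320 CPM. Acta1 made up 61.7% of sarcomeric actin UMIs at E18.5 and 39.4% at E14.5. Tmod4, which caps the pointed ends of thin filaments, had 28.9 and 1.33 CPM. The 2 that fell were Nebl, the nebulette of cardiac Z-discs (2.80 and 36.1 CPM), and Fhod3, a formin that builds actin filaments (400 and 1144 CPM). Nebl RNA also stood at 43.2 CPM in the other nuclei of the E14.5 library. Among 10 light chains and their kinases 5 rose, with Mylk2 in the lead and Myl2, the slow regulatory chain, next at 34.7 CPM at E18.5 and 3.49 CPM at E14.5, and Myl6b fell (median 0.99, with none past 2-fold among the 4 still measured when thinned). In the thick filament and M-band only Mybpc1 and Mybpc2 of 12 measured genes rose, with a median of 0.12 (-0.02 when ratios were scaled by their median over genes), and the myomesins Myom1, Myom2 and Myom3 had ratios of 1.10, 1.52 and 0.882.

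**Figure D3:**
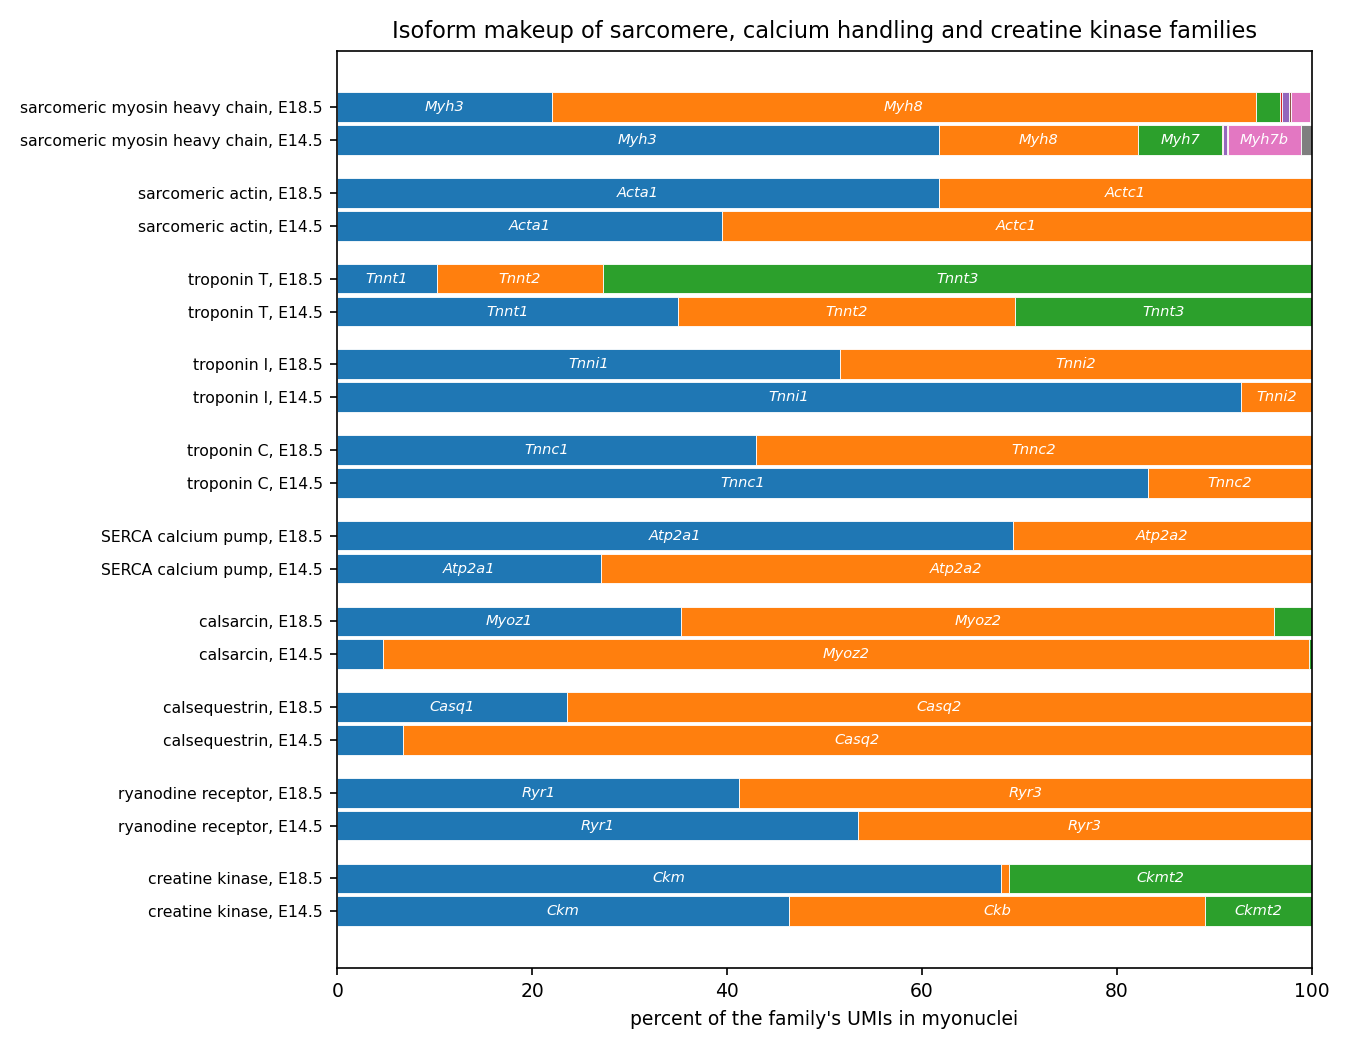
Share (percent) that each isoform took of the UMIs of its family in E18.5 and E14.5 myonuclei, drawn as stacked bars with E18.5 beside E14.5, 1 library a stage; parts under 7% carry no label. Myh8, Tnni2, Tnnc2, Tnnt3 and Atp2a1 take a larger share at E18.5 than at E14.5. Myh3, Tnni1, Tnnc1 and Atp2a2 take a larger share at E14.5 than at E18.5.

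At the Z-disc and costamere, which anchor filaments and tie them to the membrane, 14 of 32 genes rose and 2 fell (median 0.73). Myoz1, the fast calsarcin, rose 13.8-fold (11.5 to 16.7) with 173 CPM at E18.5 and 12.5 CPM at E14.5, while the slow calsarcin Myoz2 had a ratio of 1.18. Myoz1 made up 35.3% of calsarcin UMIs at E18.5 and 4.74% at E14.5. Actn3, the fast alpha-actinin, had 68.6 and 16.6 CPM, while Actn2 had a ratio of 1.09. Ldb3 rose 2.88-fold. The 2 that fell were Synpo2, an actin-bundling protein (104 and 425 CPM), and Lama2, the laminin chain of the fiber's basement membrane (1188 and 2659 CPM), which in the other nuclei stood at 1479 and 689 CPM. The dystrophin gene Dmd had 14497 CPM at E18.5 and 11136 CPM at E14.5, a ratio of 1.3.

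Of 24 genes of calcium release and uptake 9 rose and none fell (median 0.70). Atp2a1, the fast pump that refills the sarcoplasmic reticulum, had 936 CPM at E18.5 and 159 CPM at E14.5 (5.89-fold, 5.58 to 6.21), while Atp2a2, the slow pump, had a ratio of 0.965. Atp2a1 took 69.3% of pump UMIs at E18.5 and 27.0% at E14.5. Casq1, the fast calsequestrin that buffers stored calcium, had 266 and 28.6 CPM (9.30-fold), and Stim1, which senses an empty store, 563 and 127 CPM (4.43-fold). Ryr3, the second calcium release channel of developing muscle, had 2015 and 721 CPM (2.80-fold) and took 58.8% of ryanodine receptor UMIs at E18.5 and 46.6% at E14.5. Cacna1s, the voltage sensor, had a ratio of 0.896 and its partner Stac3 one of 1.27. Pvalb, the calcium buffer of fast fibers, had 104 UMIs (8.31 CPM) at E18.5 and none at E14.5. Its ratio was 27.0 with the empty sum set to 3 UMIs, a nominal value and not a lower limit.

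Among 17 ion channels and pumps of the fiber membrane 6 rose and none fell (median 0.66). Clcn1, the chloride channel that stabilizes the resting membrane, had 46.7 CPM at E18.5 and 19.4 CPM at E14.5, and Scn4a, the adult muscle sodium channel, 40.8 and 16.9 CPM, both 2.41-fold higher. The inward rectifier Kcnj12 rose 5.24-fold and Kcnj2 had a ratio of 0.8.

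Synapse genes did not share this direction. Of 19 measured genes of the acetylcholine receptor and the synapse none rose and 4 fell (median -0.36, or -0.029 with 1 rise and 2 falls when the rule share was raised to 3.0%). Musk, the receptor kinase that assembles the synapse, had 138 CPM at E18.5 and 373 CPM at E14.5 (2.71-fold lower, 2.56 to 2.87). Ache, the esterase that ends transmission, had 21.1 and 58.1 CPM (2.76-fold lower, 2.38 to 3.20). Vav3 and Col25a1, a membrane collagen needed for motor innervation, fell 3.25-fold and 2.29-fold. The call on Musk and Col25a1 was lost when the rule share was raised to 3.0%. The receptor subunit gene Chrna1 had 32.2 and 58.2 CPM, within 2-fold. Chrng, the fetal subunit, had 84.5 and 72.0 CPM, and Chrne, the adult subunit that replaces it, had 18 UMIs at E18.5 and 0 at E14.5, or 1.67% (0.994 to 2.63) and 0 of 701 UMIs of the pair, which allows up to 0.525%.

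At the myotendinous junction, where fibers attach to tendon, none of 14 genes rose and 6 fell (median -0.76). Col22a1, a collagen made by fiber ends, had 168 CPM at E18.5 and 705 CPM at E14.5 (4.20-fold lower, 4.00 to 4.41). At 1000 UMIs it was found in 7.70% of E18.5 and 32.8% of E14.5 myonuclei, against 2.44% and 2.06% of the other nuclei, and unthinned in 16.5% and 49.7% of myonuclei. Clstn2, a calsyntenin, had 136 and 1724 CPM (12.7-fold lower). Slit2 fell 5.26-fold, but its level was higher in the other nuclei of both libraries, at 135 CPM at E18.5 and 681 CPM at E14.5.

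Among the 29 lists, which were chosen with earlier results of these data known, synaptic-type and guidance genes held the most falls. Of 46 such genes 23 fell and 3 rose (median -0.98), while of all measured genes 8.03% fell and 13.9% rose. Tmem108 had 96.3 CPM at E18.5 and 1019 CPM at E14.5 (10.6-fold lower, 9.97 to 11.2), and Grid1, a glutamate receptor-like gene, had 65.8 and 626 CPM (9.52-fold lower). Dcx, the microtubule protein of migrating neurons, had 98.9 and 663 CPM (6.71-fold lower), and Rims2, which acts in vesicle release, had 2.08 and 57.8 CPM. Epha3, a receptor for ephrins, fell 3.32-fold, with 504 and 876 CPM in the other nuclei. Dpysl3 went the other way with a 6.01-fold rise. Of 15 cadherins and protocadherins 6 fell and 1 rose (median -0.64). Cdh11 had 82.3 and 567 CPM (6.89-fold lower), Pcdh17 had 10.5 and 136 CPM, and Cdh15, the M-cadherin of myogenic cells, had a ratio of 0.904.

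Among 20 integrins and laminins 7 rose and 2 fell (median 0.51, or -0.05 over the members left when each nucleus was thinned to 1000 UMIs). Itga4, the chain of an integrin that binds fibronectin and VCAM-1, had 39.3 CPM at E18.5 and 414 CPM at E14.5 (10.5-fold lower, 9.58 to 11.6), and was found at 1000 UMIs in 3.47% of E18.5 and 29.6% of E14.5 myonuclei, against 4.32% and 6.77% of the other nuclei. Unthinned, these shares of myonuclei were 13.4% and 62.4%. Itga7, the laminin receptor chain of mature fibers, had a ratio of 1.68. Fn1, the fibronectin gene, rose 3.06-fold to 91.6 CPM, against 30.0 CPM at E14.5, and stood at 601 and 401 CPM in the other nuclei. Of 17 fusion genes 3 rose and 3 fell (median -0.14). The fusogens Mymk and Mymx had ratios of 0.667 and 0.621, Jam3, Cdon and Cdh2 fell, the last pair no longer without quality control, and Mcam rose 3.36-fold.

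**Figure D4:**
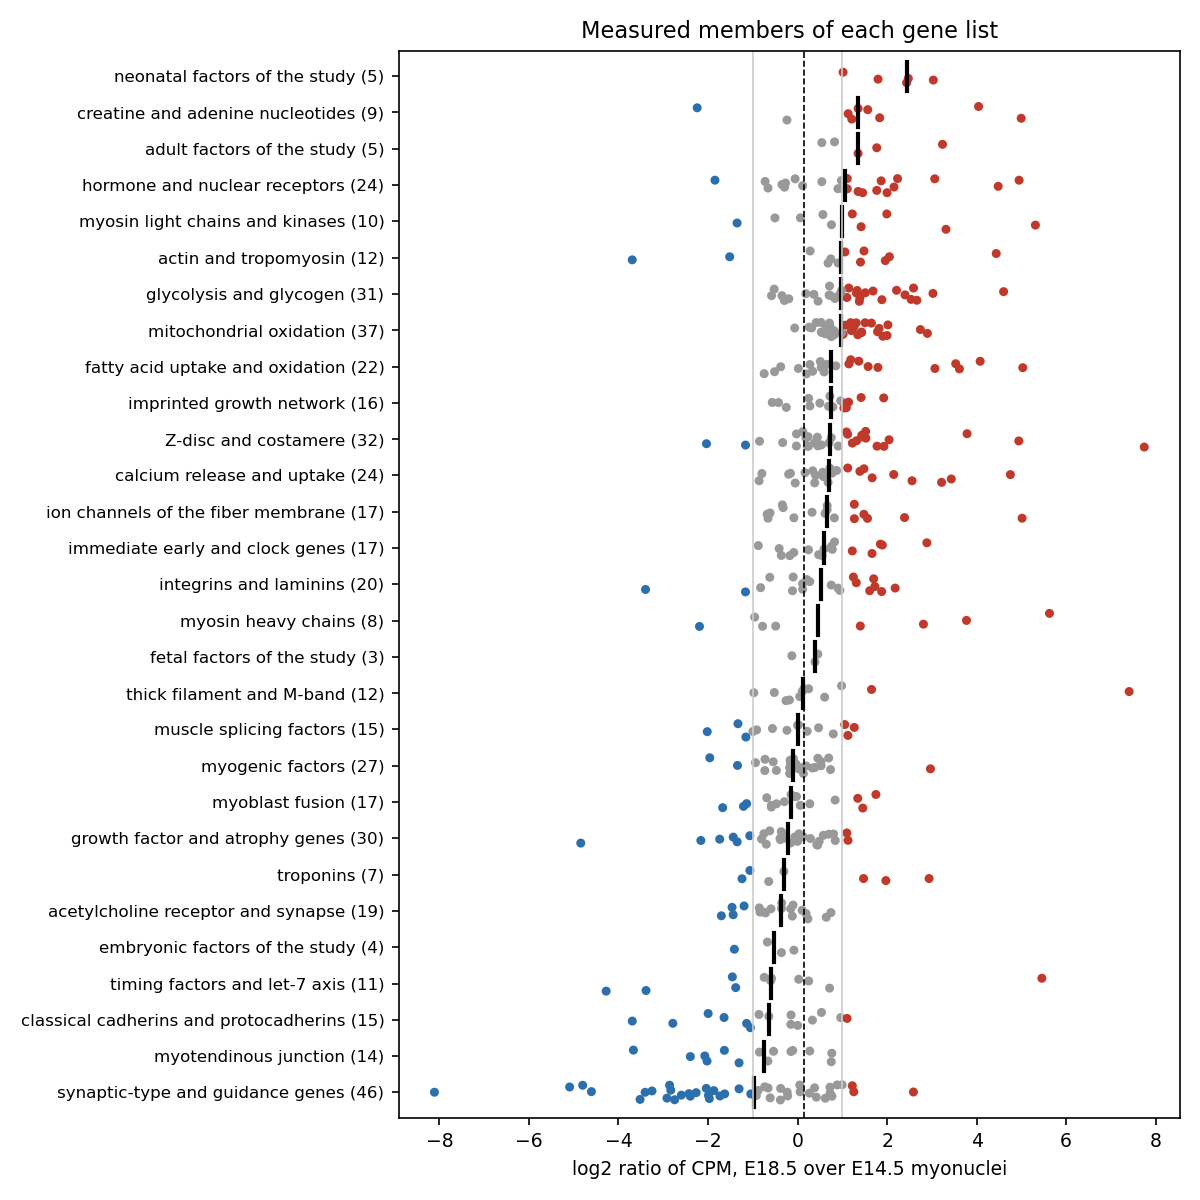
Log2 ratio of E18.5 over E14.5 for the measured members of each gene list (points) with the list's median, beside the median of all measured genes at 0.15. Energy, nuclear receptor and calcium lists lie to the right of that line, and the junction, synapse and guidance lists to the left.

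Transcription factors of the myogenic core moved little. Of 27 measured factors 1 rose and 2 fell (median -0.09, or 0.12 with the rule share at 3.0%). Myf6, the myogenic factor of maturing fibers, had 26.5 CPM at E18.5 and 3.39 CPM at E14.5 (7.83-fold, 5.46 to 11.6), while Myf5 fell 2.53-fold on 69 and 136 UMIs and Myog and Myod1 had ratios of 1.31 and 0.521. Prox1, which promotes the slow program, fell 3.89-fold with 20.1 and 78.3 CPM. The lists of factors named by the study were chosen on these samples and are not independent evidence of direction. All 5 of its neonatal factors rose (median 2.44) and 3 of 5 adult factors rose (median 1.35), while 1 of 4 embryonic factors fell (Plag1, 2.66-fold lower, median -0.52) and none of 3 fetal factors passed 2-fold (median 0.39). Nfix, a nuclear factor I gene that represses embryonic muscle genes, had 108 and 13.1 CPM (8.18-fold, 6.82 to 9.89). Its relatives Nfib, Nfic and Nfia rose 5.56-fold, 5.41-fold and 2.02-fold, and the call on Nfia was lost without the nuclei with over 1% of other markers. The 4 genes stood higher in the other nuclei of E18.5 than in the myonuclei, Nfib at 3121 and 1177 CPM, and in those nuclei Nfib and Nfia changed little with stage (ratios of other nuclei: Nfib 1.05 and Nfia 0.960). Maf, a bZIP factor of fast fibers, had 85.2 and 9.03 CPM (9.43-fold).

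Of 24 measured genes of hormone and nuclear receptors 12 rose and 1 fell (median 1.05). Ppara, which drives fatty acid oxidation, had 78.0 CPM at E18.5 and 3.49 CPM at E14.5 (22.3-fold, 15.9 to 32.4). Esrrg and Esrra, the estrogen-related receptors of oxidative metabolism, rose 8.36-fold and 4.45-fold, and Thra, the main thyroid hormone receptor of muscle, 3.65-fold. Rxrg, a partner of many of these receptors, went the other way with 66.8 and 240 CPM (3.59-fold lower). Nr3c1, the glucocorticoid receptor, had a ratio of 0.963. Among 11 timing factors 4 fell and 1 rose (median -0.60). Lin28b, the repressor of let-7 maturation, had 1.44 and 27.8 CPM (19.4-fold lower, 12 to 33), and the other nuclei showed the same direction at 3.69 and 25.3 CPM. Bcl11a had 9.83 and 103 CPM and Igf2bp1, an RNA-binding target of let-7, fell 2.74-fold. Zbtb16, the PLZF factor, had 135 and 3.08 CPM (43.9-fold, 30.7 to 65.3), with 109 and 19.4 CPM in the other nuclei.

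Of 31 glycolysis and glycogen genes 15 rose and none fell (median 0.98), of 37 mitochondrial genes 18 rose and none fell (median 0.98), and of 22 fatty acid genes 10 rose and none fell (median 0.76). Phkg1, the catalytic subunit of the kinase that triggers glycogen breakdown, had 110 CPM at E18.5 and 4.52 CPM at E14.5 (24.3-fold, 18 to 34). Hk2, the hexokinase of insulin-sensitive tissue, had 119 and 14.7 CPM, Pygm, the muscle glycogen phosphorylase, rose 5.80-fold and Eno3, the muscle enolase, 5.28-fold. Cs, the first enzyme of the citric acid cycle, had 158 and 42.1 CPM. Cpt1b, the muscle gate for fatty acid entry into mitochondria, had 36.4 and 2.16 CPM (16.9-fold), while Cpt1a, its liver form, had a ratio of 0.597. Hk1 and Slc2a1 had ratios of 0.785 and 0.817 and Slc2a4, the insulin-responsive glucose transporter, rose 2.52-fold.

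The creatine kinases changed in make-up. Ckm, the muscle form, had 359 CPM at E18.5 and 21.8 CPM at E14.5 (16.5-fold, 14 to 19), and Ckb, the brain form, fell to 4.23 CPM, against 20.0 CPM (4.73-fold lower, 3.47 to 6.53). Of creatine kinase UMIs Ckm took 68.1% at E18.5 and 46.4% at E14.5, Ckmt2 31.1% and 10.9%, and Ckb 0.804% and 42.7%. Ckb moved the other way in the other nuclei, with 17.7 and 7.57 CPM. Of 9 genes of creatine and adenine nucleotides 7 rose and 1 fell (median 1.35).

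Growth genes were mixed. Of 30 genes of growth factors and atrophy 2 rose and 6 fell (median -0.21), and none rose when ratios were scaled by their median or nuclei were thinned. Mstn, the myostatin that limits muscle mass, had 20.4 CPM at E18.5 and 68.0 CPM at E14.5 (3.34-fold lower, 2.88 to 3.87), and Fst, its antagonist, had 13.1 and 58.5 CPM (4.47-fold lower). Foxo1 fell 2.71-fold and the receptor gene Acvr2a 2.55-fold. Igf1 rose 2.18-fold, a call that was lost without the nuclei with over 1% of other markers, and stood at 573 and 386 CPM in the other nuclei. Of 16 imprinted genes of growth 6 rose and none fell (median 0.76), but only 2 rose when ratios were scaled by their median and 3 without quality control. Mest lost its call without the nuclei with over 1% of other markers. The list held H19 at 303 and 79.7 CPM (3.80-fold) and Igf2 at 595 and 222 CPM (2.68-fold, 2.55 to 2.81). Meg3, a noncoding transcript of the Dlk1 locus that overlaps its neighbors, rose 2.05-fold with 20712 and 10106 CPM, a call that was lost when ratios were scaled by their median. Of 17 immediate early and clock genes 5 rose and none fell (median 0.59), with Bhlhe40 at 26.6 and 3.59 CPM. Among 15 muscle splicing factors 3 rose and 3 fell (median -0.0003). Mbnl2 and Mbnl1, which set adult splice forms, rose 2.41-fold and 2.08-fold, the Mbnl1 call being lost under scaling by the median, which left 1 rise and 5 falls in the list, and with the rule share at 1.0%. Mbnl3 fell 4.05-fold to 9.19 CPM, against 37.2 CPM at E14.5.

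Open chromatin was compared in regions made by joining the peaks of both libraries, and a ratio was formed only for regions with a peak in both and at least 100 counts, scaled to the myonuclear ATAC counts in peaks. Peaks were called library by library, so a region without a peak is not listed rather than closed. Of 43786 regions 1676 (3.83%) were more than 2-fold higher at E18.5 and 4646 (10.6%) more than 2-fold lower, together 14.4%, with a median log2 ratio of -0.16. Scaled by that median, 2210 were higher and 3250 lower. Another 38936 regions had a peak at E18.5 alone and 13394 at E14.5 alone. The E18.5 library, which was deeper, listed 91265 peaks and the E14.5 library 65624.

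A smaller share of promoters than of genes passed 2-fold, but the 2 shares are not like for like. RNA could be absent from 1 library, while promoter peaks listed at 1 stage alone were left out. A promoter ratio needed a region with a peak in both libraries and at least 100 counts. Of 16095 genes with such a region within 1000 bases of an annotated start, 193 (1.20%) had a more than 2-fold higher and 319 (1.98%) a more than 2-fold lower count at E18.5, together 3.18%. The order of these counts turned, to 298 higher and 212 lower, when ratios were scaled by the median over regions. Genes with RNA past 2-fold lower had a median promoter log2 ratio of -0.34, with 77 of 684 promoters (11.3%) lower and none higher past 2-fold. Genes with RNA past 2-fold higher had a median of 0.16, with 55 of 1349 promoters (4.08%) higher and 1 lower, and genes in between a median of -0.0013. Across the 10343 genes with both values Pearson's r was 0.44 and Spearman's rho 0.33, over genes of the same 2 libraries, which are not independent replicates.

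The highest promoter ratio was that of Slc10a6, a transporter of sulfated steroids whose promoter is printed above, with 16.7 ATAC CPM (counts for every 1000000 ATAC counts of the myonuclei) at E18.5 and 1.5 at E14.5 (11.1-fold, 5.45 to 26.3) and RNA of 7.19 and 0.103 CPM. In the other nuclei the Slc10a6 promoter had 17.0 and 9.07 ATAC CPM, so at E18.5 it was as open outside myonuclei as inside. The promoter of Ckmt2 had 30.8 and 10.7 ATAC CPM (2.88-fold, 2.15 to 3.93), that of Ppara 75.5 and 34.5 (2.19-fold), that of Zbtb16 38.1 and 17.0 (2.24-fold) and that of Mylk2 42.9 and 20.8 (2.06-fold). For these genes RNA and promoter moved the same way, and the RNA ratio was larger at Ckmt2, Ppara, Zbtb16 and Mylk2. At Slc10a6 the 2 ratios were not ranked, since its RNA had 90 and 1 UMIs, under the 100 of a measured gene. The Pvalb promoter had 45.4 and 19.2 ATAC CPM (2.36-fold) with 8.31 and 0 CPM of RNA. The Myh8 promoter had 65.1 and 32.7 ATAC CPM, a ratio of 1.99 (1.67 to 2.39). A neighboring region 1215 bases from that start was listed at E14.5 alone, with 154 counts, and is not in this ratio. The Myh3 promoter had 28.3 and 37.5, a ratio of 0.753. Promoters of other genes with large RNA rises stayed within 2-fold, with ratios of 1.3 at Ckm, 1.21 at Acta1, 1.16 at Tnnt3 and 0.955 at Atp2a1.

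In the other direction, the promoter of Tnnc1 had 20.7 ATAC CPM at E18.5 and 67.1 at E14.5 (3.25-fold lower, 2.68 to 3.95), and those of the slow genes Tnnt1 and Tnni1 had 41.6 and 86.4, and 52.6 and 104. The promoter of Col22a1 had 30.4 and 87.4 ATAC CPM (2.87-fold lower) and that of Erbb4 5.53 and 18.7 (3.38-fold lower). The Itga4 promoter had 14.7 and 38.3 (2.6-fold lower, 2.05 to 3.31), with 12.5 and 15.6 in the other nuclei. Promoters of Cdh11, Ptprt, Musk and Bcl11a were 2.58-fold, 2.43-fold, 2.22-fold and 2.22-fold lower. RNA did not always follow, since the promoter of Jam2 was 2.43-fold lower with 250 and 307 CPM of RNA, and that of Myom1 2.20-fold lower with an RNA ratio of 1.10. Among the 8 lowest promoters, that of Gadl1 had 4.57 and 20.3 ATAC CPM (4.43-fold lower), with RNA of 29.4 and 89.7 CPM. The 2 lowest ratios, at Stmn4 and Mkrn3, set 1 peak at E18.5 beside 2 at E14.5, with 748 and 1446 bases covered at Mkrn3, so their size is not given.

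**Figure D5:**
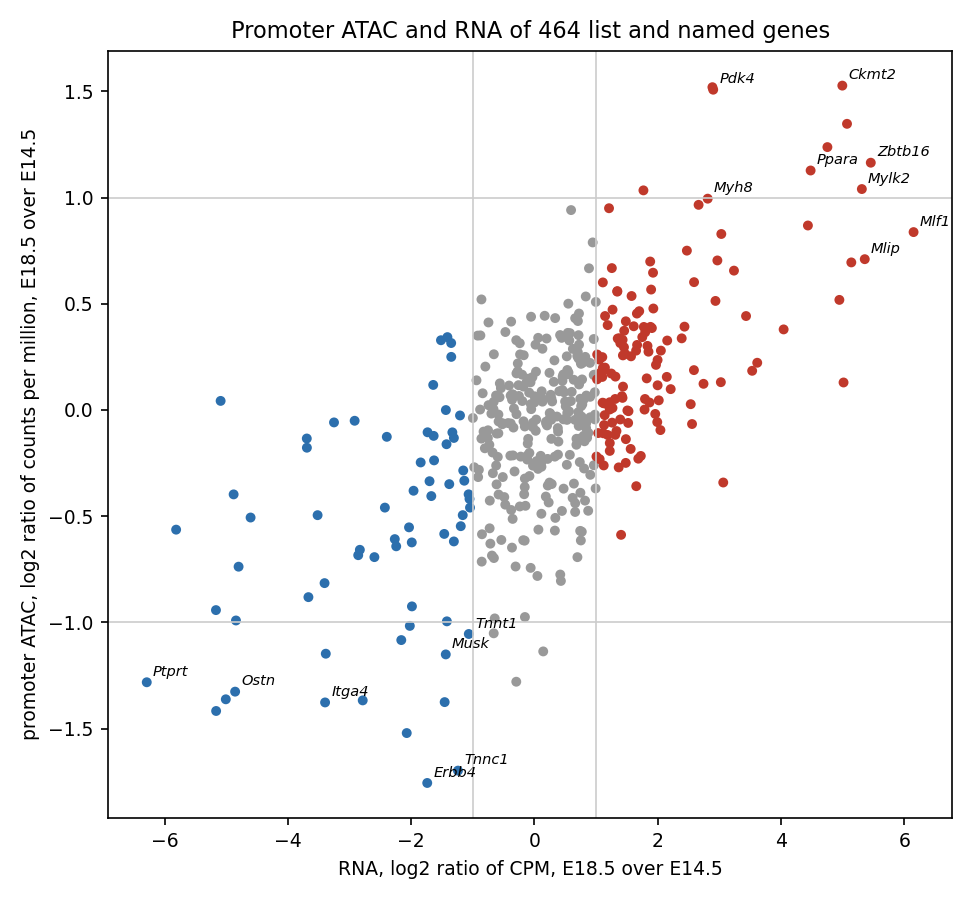
Log2 ratio of promoter ATAC counts against log2 ratio of RNA, E18.5 over E14.5, for 464 listed or named genes, with genes whose RNA rose more than 2-fold in red (131) and fell in blue (67). Of the red points 101 lie above 0 on the promoter axis and of the blue points 61 below 0.

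Distal regions held most of the chromatin change. Of 25863 measured, 1304 (5.04%) were more than 2-fold higher and 3790 (14.7%) more than 2-fold lower at E18.5, together 19.7%. The Rngtt region printed above had 30.6 ATAC CPM at E18.5 and 2.63 at E14.5 (11.7-fold) and the Gsdmc region 21.2 and 0.939 (22.5-fold). Regions near Meis1 and within introns of Dtx4, Bicc1 and Mmp2 were also among the 8 highest, and in the other nuclei of E18.5 the region in Mmp2 had 30.1 ATAC CPM, as many as in myonuclei (30.0). The Myh7b region had 3.55 and 32.1 ATAC CPM (9.04-fold lower, 5.96 to 14.2), with Myh7b RNA at 87.5 and 170 CPM. A region 388556 bases from Acvr2a, in an intron of the noncoding gene Gm13481, had 6.01 and 49.8 (8.30-fold lower). It lies beyond the 100 kilobases within which regions are paired with a gene below, so no RNA is set beside it.

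The regions were then set beside RNA of the nearest gene. Where the nearest gene within 100 kilobases was measured, 29.6% of the 594 genes nearest to higher regions had RNA past 2-fold higher and 5.56% lower. For 1481 genes nearest to lower regions these shares were 7.90% and 17.4%, and for all 5634 such genes 15.8% and 8.45%. The regions also differed in how far they belonged to myonuclei. At the stage where it was higher, the myonuclear count was at least 2 times that of the other nuclei in 36.0% of the higher and 59.8% of the lower regions. Among the 20755 regions within 2-fold this share was 27.9%. The other nuclei moved more than 2-fold the same way in 175 of the 1304 higher and 1686 of the 3789 lower regions. In regions within 2-fold their own median ratio was 0.741, so the counts of the 2 directions cannot be compared directly.

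Sequence motifs differed between these sets, searched on both strands of the central 501 bases. CAGCTG was present in 53.9% of the higher, 68.8% of the lower and 52.8% of all distal regions. TGANTCA was present in 26.9%, 15.7% and 16.4%, and the motif of nuclear factor I, TTGGC and GCC with 5 bases between, in 10.0%, 3.25% and 3.98%. The motif of MEF2 factors was present in 6.21%, 12.2% and 9.18%, and CATTCC, the motif of TEAD factors, in 32.9%, 38.3% and 32.1%. CANNTG, the general E-box that includes CAGCTG, was in over 95% of every set, and AAGGTCA, bound by estrogen-related receptors, in 9.28%, 8.16% and 8.93%. Median GC content was 51.9% in the higher, 48.1% in the lower and 50.1% in all regions. Within each of 3 equal bands of GC content, TGANTCA and the nuclear factor I motif were still most frequent in the higher and CAGCTG in the lower regions. Within the regions at least 2 times as accessible in myonuclei as in other nuclei, CAGCTG was in 61.7% of the higher and 75.2% of the lower regions and TGANTCA in 26.4% and 17.6%, against 70.3% and 19.5% of those within 2-fold. The excess of CAGCTG in lower regions was thus smaller there, and the MEF2 motif, in 15.4% of lower regions and 16.9% of those within 2-fold, lost its excess. In promoters of 300 bases, CAGCTG was in 17.9% of 1528 promoters of genes whose RNA rose, 20.3% of 902 of genes whose RNA fell and 15.5% of all 11283 of measured genes, and the MEF2 motif seen in Myh8 in 3.27%, 1.55% and 2.06%. A match is a string of letters and was not taken as a bound site.

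The myosin gene cluster on chromosome 11, from 10000 bases before Myh3 to 10000 bases after Myh13 (67068300 to 67381586), held 36 regions, 16 with a peak in both libraries, 16 at E18.5 alone and 4 at E14.5 alone. Of the 16 shared regions 1 was higher (2.98-fold) and 1 lower (0.451) past 2-fold. The region with most counts in the cluster, 27643 bases from the Myh3 start, had 73.6 and 75.0 ATAC CPM. A peak at the start of Myh1 was listed at E18.5 alone, with 92 counts. Outside the cluster, a peak 149 bases from the start of the slow gene Myh7, at chr14:54994313-54995239, was listed at E14.5 alone, with 567 counts or 53.2 ATAC CPM, among the 5 largest peaks without a partner at E18.5. The largest peaks of E18.5 without a partner at E14.5 lay in Brd2, near Trim8, in Cic, in an intron of Plec (704 counts) and in one of Chst3, whose RNA had 11.1 and 1.33 CPM.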

How the data were processed

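The authors deposited 1 matrix a library, made with Cell Ranger ARC 2.0.0 against mm10 (GRCm38) with intronic reads included. The deposited values are raw counts per barcode: UMIs for 32285 genes and transposase cut sites for the peaks called in that library. Most peak counts were even, so intervals used counts divided by 2. The assignment of reads fitting several genes is not stated, so paralogs (the myosin heavy chains) and overlapping or antisense genes (Meg3, Rian, Mirg) carry that uncertainty.

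Barcodes with 400 to 25000 UMIs, under 10% mitochondrial UMIs and under 70000 ATAC counts were kept. No doublet caller was run and none were removed. UMIs were summed over myonuclei and scaled to CPM. Ratios have exact conditional binomial intervals, shares exact Clopper-Pearson intervals, and a sum of 0 was set to 3 counts. No test was run, since each group is 1 library. Named genes were members of 29 lists, the 12 highest and 12 lowest ratios and the 10 largest differences each way. The ratios and differences were ranked among genes with at least 300 UMIs, leaving out mitochondrial, ribosomal protein, Gm and Rik genes. At the stage where it was higher, and only there, a ranked gene needed at least 3 times the level of the other nuclei. Named chromatin features were the 8 highest and 8 lowest promoters and distal regions with at least 200 counts, and the 5 largest peaks a library without a partner. Distal regions lie over 1000 bases from annotated starts. A few genes and 1 region that these rules select are not reported here. The members and lists were chosen with earlier results of these data known. Promoter sequences and gene starts came from RefSeq tables and the given annotation, and 407 of 540 listed genes had a promoter sequence. The scripts were tested on simulated data. Tools were Python 3.11.15, numpy 2.4.6, scipy 1.17.1, pandas 2.3.3 and matplotlib 3.10.9.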

Additional observations from a re-analysis of the deposited data

How the results depend on the processing

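With 1 library a stage, all limits of pooling, dissection, sort and depth coincide with stage and cannot be told apart from it. No paired analysis was possible because each stage is 1 library. Thinning each nucleus to 1000 UMIs gave 490 genes past 2-fold higher and 481 lower (50.5% of calls higher, against 63.4%), and scaling by the median ratio 53.2% higher. A minimum of 20 UMIs gave 2725 and 1589 genes, 300 UMIs 851 and 596, and 1 UMI 4824 and 3923. Medians of 5 lists changed sign: myosin heavy chains when thinned (-0.62), integrins and laminins when thinned (-0.054), the thick filament when scaled by the median (-0.022), myogenic factors with the rule at 3.0% (0.12), and splicing factors, at -0.0003, under 5 settings (up to 0.044). Thinning left fewer members measured, and rises then numbered 7 of 13 nuclear receptor, 4 of 10 fatty acid, 4 of 4 creatine, 3 of 10 ion channel, 3 of 14 integrin and laminin and 2 of 4 immediate early and clock genes, and falls 3 of 8 cadherins and 2 of 9 timing factors. Of 216 listed genes past 2-fold, 201 kept the call without quality control, 209 with the rule at 1.0%, 194 when scaled by the median and 215 with a total without the top genes. With the rule at 3.0% (1108 and 504 myonuclei) 183 of 190 kept it, when thinned 132 of 138, without nuclei over 1% of other markers 211 of 214, and none changed direction under these settings. The Myh8 share was 73.0% at E18.5 and 21.2% at E14.5 without quality control, 74.0% and 17.8% at 3.0%, 72.8% and 21.5% thinned, and 72.7% at E18.5 with at least 400 ATAC counts. Lower regions numbered 2664 (2071 distal) at 3.0%. A minimum of 40 counts gave 2525 higher regions (2050 distal), and 300 counts 637 higher and 1491 lower (466 and 1178 distal). Scaling by the median gave 2210 higher and 3250 lower regions, and turned the order of promoter calls to 298 higher and 212 lower (262 and 250 when scaled to shared counts). Alternatives added after seeing the data gave 1581 higher and 4476 lower regions without nuclei over 1% of other markers, 152 and 241 promoters for genes with starts within 1000 bases, and 1556 and 901 genes without shared barcodes.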
